A study of Mus musculus with 3 samples.

Results

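The 39 *Hox* genes of the mouse, taken as every protein-coding symbol that begins with Hox, a cluster letter from a to d and a paralog number, were followed among the 32285 genes counted in single cells of the fracture callus. Cluster A on chromosome 6 held 11 of them, cluster B on chromosome 11 held 10, cluster C on chromosome 15 held 9 and cluster D on chromosome 2 held 9. The cells came from femoral fractures of C57BL/6 mice, made by cutting the shaft with scissors over an intramedullary pin, and were sorted as negative for CD45, CD31 and TER119. Droplet sequencing gave 1 library for each of days 7, 10 and 14 of healing, none with a treatment, and the number and age of the mice behind a library were not given in the sources used here. No unfractured bone, no other skeletal site and no second library of any day were analysed, so each value below has a counting interval and no test between days.

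*Hox* genes encode homeodomain transcription factors that lie side by side in 4 clusters, and genes with the same paralog number in different clusters derive from 1 ancestor. Low paralog numbers lie at the 3′ end of a cluster and are used towards the head, and high numbers lie at the 5′ end and are used towards the tail and the tip of the limb. In the general scheme of the limb, paralogs 9 and 10 are assigned to the upper segment, paralogs 11 to the lower segment and paralogs 13 to the hand and foot. Adult skeletal stroma is known to keep part of this embryonic pattern, and in blood *Hoxb4* and *Hoxa9* are known from stem and precursor cells.

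Levels are given as CPM, the unique molecular identifiers (UMIs) of a gene per 1000000 UMIs, summed over all cells of a class within 1 library, with exact 95% Poisson intervals. A UMI marks 1 captured transcript end, so levels were compared between genes without a correction for length. The classes hold cells with no UMI of *Ptprc*, which encodes CD45, and a high level of exactly 1 of 5 markers. These were *Aspn*, a marker of fibroblastic osteoprogenitors, *Cnmd*, of chondrocytes, *Col10a1*, of hypertrophic chondrocytes, *Ifitm5*, of osteoblasts, and *Rgs5*, of pericytes. The limits on cells left 7017, 6593 and 9853 cells at days 7, 10 and 14, with medians of 5056, 17370 and 15802 UMIs per cell, and 29 to 42 barcodes were shared between any pair of libraries. At day 10 the classes held 1592 *Aspn*-high, 2560 *Cnmd*-high, 370 *Col10a1*-high, 113 *Ifitm5*-high and 47 *Rgs5*-high cells, and at day 14 they held 3666, 1678, 973, 343 and 125. The day 7 library went against its sort, since 6570 of its 7017 cells had a *Ptprc* UMI and 22 *Aspn*-high and 59 *Cnmd*-high cells were the largest stromal classes. Its *Aspn*-high and *Cnmd*-high cells carried *S100a8*, a neutrophil gene, at 757 and 714 CPM.

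The classes held the genes of their names at day 14. *Ogn* reached 1345 CPM in *Aspn*-high, *Ucma* 1484 in *Cnmd*-high, *Ihh* 909 in *Col10a1*-high, *Bglap* 4896 in *Ifitm5*-high and *Notch3* 402 in *Rgs5*-high cells. Over days 10 and 14, the 5 blood genes examined summed to 9.82 to 87.6 CPM in *Aspn*-high cells and to at most 32.1 CPM in the other 4 classes. The 3 endothelial genes summed to 28.9 to 61.9 CPM in *Rgs5*-high cells, mostly *Emcn* with *Cdh5* at 0, and to at most 3.87 CPM elsewhere. The summed muscle and Schwann cell genes reached at most 2.69 and 2.44 CPM. What part these had in the *Hox* levels was not tested.

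*Hox* transcripts were found in all stromal classes. Cluster C gave more of them than any other cluster in all but the *Ifitm5*-high cells of day 10 and the 6 of day 7. In *Aspn*-high cells all 39 members together reached 309 CPM (95% interval 256 to 370) at day 7, 292 (286 to 299) at day 10 and 288 (283 to 292) at day 14. In *Cnmd*-high cells they reached 255 (228 to 285), 192 (188 to 195) and 215 (210 to 219) CPM on the same days. In *Col10a1*-high cells the sum was 206 (194 to 217) at day 10 and 215 (208 to 222) at day 14, and in *Ifitm5*-high cells 240 (219 to 262) and 176 (164 to 188). *Rgs5*-high cells stood at 290 (249 to 336) and 322 (292 to 353) CPM. On this scale the fibroblastic and pericyte classes had the highest sums at both later days. With the 100 genes with the most UMIs left out of the totals, the sum at day 10 stood at a log2 ratio of 0.02 to *Aspn*-high cells in *Ifitm5*-high and −0.09 in *Rgs5*-high cells, so that order did not hold there. In CPM over all UMIs, the intervals of *Aspn*-high cells at days 10 and 14 did not overlap those of the cartilage and osteoblast classes.

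**Figure D1:**
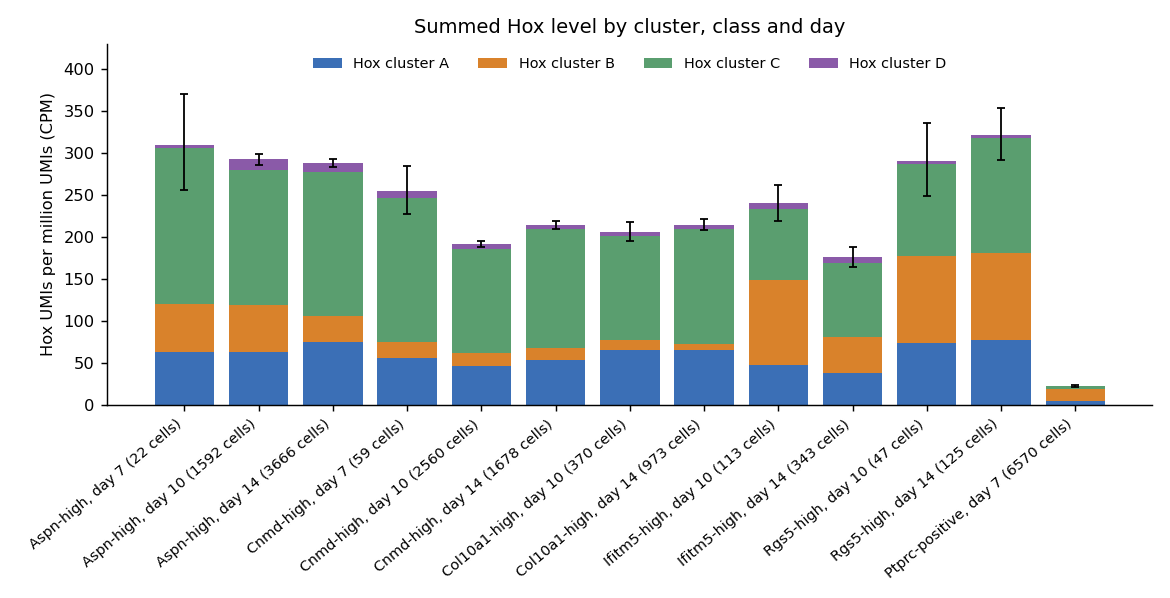
Summed *Hox* level in CPM in each class and day, stacked by cluster A to D, with exact 95% Poisson intervals of the sum. The stromal classes stand between 176 and 322 CPM, with cluster C as the tallest part in all but the day 10 *Ifitm5*-high cells, and the *Ptprc*-positive cells of day 7 stand at 21.8 CPM with cluster B as the tallest part.

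By cluster, *Aspn*-high cells of day 14 held 74.0 CPM from cluster A, 31.8 from B, 172 from C and 10.0 from D. Cluster C therefore gave 59.7% of their *Hox* UMIs (58.9 to 60.5) and cluster B 11.1% (10.6 to 11.6). In *Col10a1*-high cells of that day the levels were 65.5, 7.22, 136 and 5.79 CPM. In *Ifitm5*-high cells they were 37.1, 43.9, 87.8 and 6.75 CPM, and in *Rgs5*-high cells 76.4, 104, 138 and 3.71 CPM. Cluster B thus had the widest range in fold over the classes, from 7.22 CPM in hypertrophic chondrocytes to 104 in pericytes, whereas cluster C stayed between 87.8 and 172 CPM.

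By paralog number, members 9 and 10 gave most in the fibroblastic and cartilage classes of both later days. In *Aspn*-high cells of day 14 paralogs 9 and 10 reached 158 CPM, paralogs 4 to 8 reached 98.0, paralogs 1 to 3 reached 24.6 and paralogs 11 to 13 only 6.88. Paralogs 9 to 13 made up 57.4% of the *Hox* UMIs there (56.6 to 58.2), 57.3% in *Cnmd*-high and 63.6% in *Col10a1*-high cells. The shares were lower in *Ifitm5*-high cells, at 48.2%, and in *Rgs5*-high cells, at 37.1%, where paralogs 1 to 3 gave 23.8% and 23.0%. In *Rgs5*-high cells paralogs 4 to 8 stood above 9 and 10, at 39.9% against 35.7%. In *Ifitm5*-high cells of day 10 paralogs 1 to 3 stood above 9 and 10, at 39.0% against 30.6%. The intervals overlapped in both cases. In every class of days 10 and 14, paralogs 11 to 13 gave at most 2.39% of the *Hox* UMIs.

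Of the 39 members, 16 reached 5 CPM in a class of at least 50 cells and are described singly. They were *Hoxa5*, *Hoxa7*, *Hoxa9* and *Hoxa10*, then *Hoxb2*, *Hoxb3*, *Hoxb4*, *Hoxb7* and *Hoxb8*, then *Hoxc4*, *Hoxc5*, *Hoxc6*, *Hoxc8*, *Hoxc9* and *Hoxc10*, and, alone from cluster D, *Hoxd8*. The other 23 stayed below, with highest levels in such classes from 0 to the 4.95 CPM of *Hoxc11* in *Aspn*-high cells of day 14. Of all members, *Hoxb13* and *Hoxd12* had no UMI in any kept cell, and 11, *Hoxb8* among them, had 1 to 100 UMIs in all 3 libraries together. *Hoxa13*, *Hoxd10* and *Hoxd11* had 4, 5 and 4 UMIs of the 65418 *Hox* UMIs counted. At day 14, *Hoxd13* reached 1.30 CPM in *Aspn*-high cells and *Hoxa11* 0.49 CPM.

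**Figure D2:**
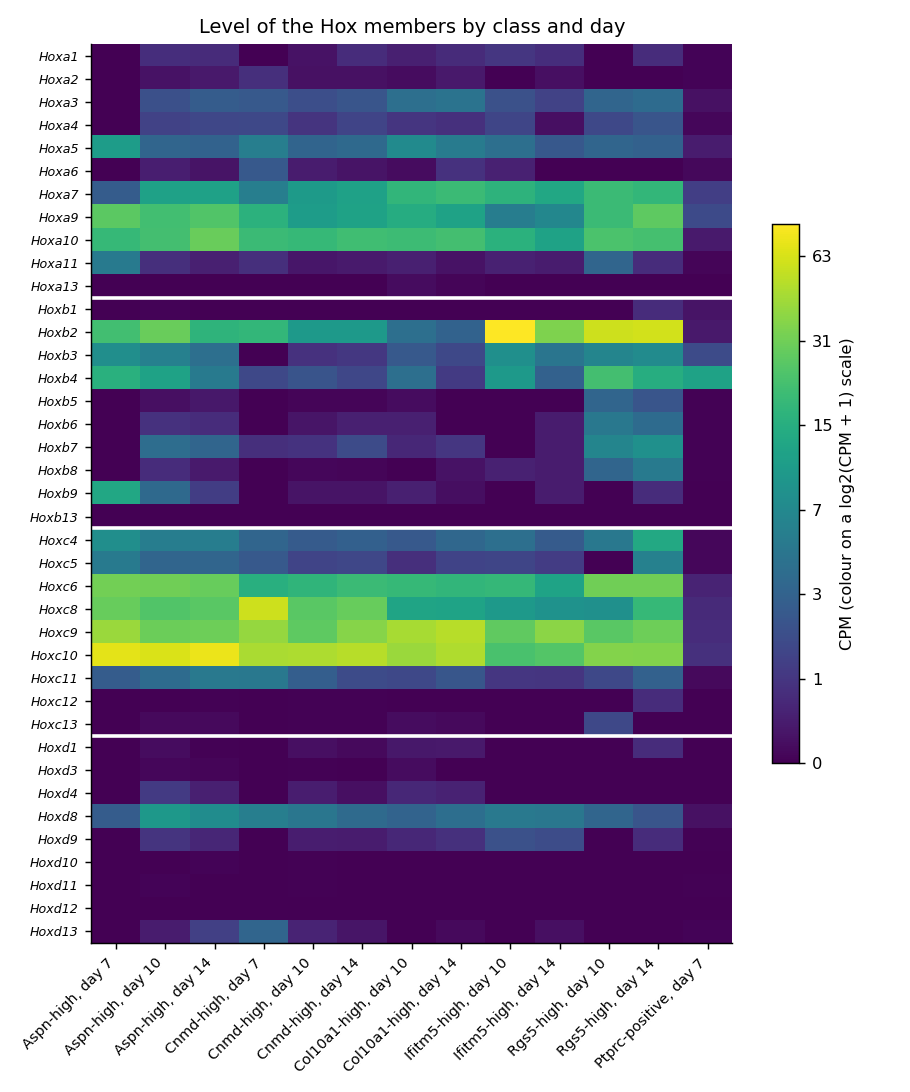
Level of each of the 39 members (rows, by cluster and paralog number, with white lines between clusters) in each class and day (columns), with colour on a log2(CPM + 1) scale. The brightest rows are *Hoxc6* to *Hoxc10*, *Hoxa7* to *Hoxa10* and *Hoxb2*, and the last column, blood cells of day 7, is dark but for *Hoxb4*.

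*Hoxc10*, a paralog of the upper limb segment, had the most UMIs of all members, 14955 over the kept cells. Its level in *Aspn*-high cells was 68.1 CPM (44.5 to 99.7) at day 7, 63.7 (60.6 to 67.0) at day 10 and 72.6 (70.3 to 75.0) at day 14. At day 14 it stood at 51.2 CPM (48.9 to 53.6) in *Cnmd*-high, 48.6 (45.3 to 52.0) in *Col10a1*-high, 34.8 (25.6 to 46.3) in *Rgs5*-high and 24.6 (20.5 to 29.4) in *Ifitm5*-high cells. The order was the same at day 10. At both days the *Aspn*-high level lay apart from the rest, while the intervals of each further pair of neighbours in the order overlapped. *Hoxc5* and *Hoxc10* share 8.70% of the exon bases of *Hoxc10* (chr15:102966796-102971893, plus strand, GRCm38), so reads there could not be given to either with certainty.

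*Hoxc9*, its 3′ neighbour, had another order. At day 14 its level was 50.9 CPM (47.5 to 54.4) in *Col10a1*-high, 37.7 (32.6 to 43.5) in *Ifitm5*-high, 36.3 (34.3 to 38.3) in *Cnmd*-high and 30.4 (28.9 to 31.9) in *Aspn*-high cells. In hypertrophic chondrocytes *Hoxc9* and *Hoxc10* were thus close to each other, while in fibroblastic cells *Hoxc10* was far above. *Hoxc8* had the reverse order of the cartilage classes, with 26.1 CPM (24.7 to 27.5) in *Aspn*-high and 28.8 (27.0 to 30.6) in *Cnmd*-high cells against 12.1 (10.5 to 13.8) in *Col10a1*-high and 8.54 (6.18 to 11.5) in *Ifitm5*-high cells. Its highest level was in the 59 *Cnmd*-high cells of day 7, at 58.1 CPM (45.5 to 73.2).

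The first comparison set hypertrophic chondrocytes against fibroblastic osteoprogenitors of the same library. A member was compared where both classes together held at least 50 of its UMIs, and called at a difference of at least 2-fold, and log2 ratios have exact 95% binomial intervals. At day 14, 10 of 20 compared members were at least 2-fold lower in *Col10a1*-high cells, against 23.1% of all 13104 genes compared, and none was at least 2-fold higher, against 8.94%. At day 10, 9 of 18 were lower, against 21.8% of all genes, and *Hoxa3* and *Hoxa5* were higher, against 8.6%. The median log2 ratio of the compared members was −0.98 at day 14 and −1.08 at day 10, beside −0.31 and −0.23 over all genes.

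The members that were lower were led by cluster B. *Hoxb2*, a 3′ gene known from hindbrain patterning, stood at 3.04 CPM in *Col10a1*-high and 16.7 CPM in *Aspn*-high cells of day 14, a log2 ratio of −2.46 (−2.89 to −2.05), and the ratio was −2.86 (−3.50 to −2.29) at day 10. *Hoxb4* had ratios of −2.18 (−2.94 to −1.51) at day 14 and −1.55 (−2.20 to −0.96) at day 10. *Hoxb3*, *Hoxb7* and *Hoxb9* were also lower at both days, the last on 3 UMIs in the *Col10a1*-high cells at each. At day 10 only 0.81% of the *Col10a1*-high cells had a *Hoxb7* UMI. Summed over the cluster the ratio was −2.14 (−2.42 to −1.87) at day 14, and without *Hoxb2* it was −1.85 (−2.23 to −1.50). Outside cluster B, *Hoxc5* and *Hoxc11* were called at both days, *Hoxc8*, *Hoxa9* and *Hoxd13* at day 14, and *Hoxc4* and *Hoxd8* at day 10.

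Within cluster A the members differed in direction. In *Col10a1*-high cells of day 14, *Hoxa3*, *Hoxa5* and *Hoxa7* were higher than in *Aspn*-high cells, with log2 ratios of 0.74 (0.31 to 1.16), 0.80 (0.40 to 1.19) and 0.74 (0.54 to 0.94). *Hoxa9* was lower at −1.02 (−1.25 to −0.81), *Hoxa10* at −0.45 (−0.62 to −0.28) and *Hoxa4*, on 14 UMIs, at −0.92 (−1.85 to −0.09). At day 10 *Hoxa3*, *Hoxa5* and *Hoxa7* stood at 1.06, 1.17 and 0.58. *Hoxa9* was at −0.51 and *Hoxa10* at −0.12, the last with an interval that held 0 (−0.42 to 0.17). With the 100 top genes left out of the totals, *Hoxa9* was at −0.74 (−0.96 to −0.52) at day 14. On that scale the intervals of *Hoxa10* at day 14, −0.16 (−0.33 to 0.008), and *Hoxa9* at day 10, −0.28 (−0.62 to 0.04), held 0. Cluster A as a whole was at −0.18 (−0.28 to −0.08) at day 14, which turned to 0.11 (0.01 to 0.21) with the 100 top genes left out of the totals, and at 0.06 (−0.10 to 0.22) at day 10. *Hoxc9* was the other member that was higher at both days, at 0.74 (0.62 to 0.86) and 0.61 (0.41 to 0.81).

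The stretches before the starts of *Hoxa7* and *Hoxa9* are shown because these neighbours differed in opposite directions between the classes. They are RefSeq promoter windows of GRCm38.p6, a table that matched 22 of the 39 members, and capitals mark the letters TTTATG on either strand, a motif bound by the caudal-type (CDX) factors that act on *Hox* genes in the embryo. The *Hoxa7* stretch is chr6:52218712-52218823 and the *Hoxa9* stretch chr6:52227371-52227620, both on the minus strand and read towards the gene. Both lie inside the spans that GENCODE gives these genes (chr6:52214491-52221854 and chr6:52223100-52231089), before the RefSeq start and not before the first annotated one. The first ends where an annotated exon on the same strand begins, so it holds 112 bases.
Hoxa7: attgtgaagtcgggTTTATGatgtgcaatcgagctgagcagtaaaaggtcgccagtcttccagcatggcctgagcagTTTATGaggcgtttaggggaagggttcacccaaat
Hoxa9: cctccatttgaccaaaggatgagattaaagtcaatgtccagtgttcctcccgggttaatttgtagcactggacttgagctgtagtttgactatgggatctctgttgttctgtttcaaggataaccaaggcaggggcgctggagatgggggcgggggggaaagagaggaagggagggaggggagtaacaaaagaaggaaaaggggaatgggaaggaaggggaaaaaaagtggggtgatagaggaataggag
The *Hoxa7* stretch held the motif at 236 and 173 bases before the start, and the *Hoxa9* window held none. Of all 32851 promoter windows of 250 bases, 10.8% held it, and *Hoxa7* was among 5 of the 22 matched *Hox* genes that did. The composite PBX and HOX motif TGATNNAT, searched on both strands, was in neither and in 7.68% of all windows. Both are matches of letters only, and *Cdx1*, *Cdx2* and *Cdx4* reached at most 0.199 CPM in any class of days 10 and 14.

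The summed *Hox* ratio depended on the scale. Over all members it was −0.42 (−0.48 to −0.37) at day 14 and −0.51 (−0.60 to −0.42) at day 10. The 100 genes with the most UMIs took 45.5% of the UMIs of *Col10a1*-high cells and 33.4% of those of *Aspn*-high cells at day 14, and leaving them out of the total raised every log2 ratio by 0.29 at day 14 and 0.23 at day 10. The summed ratio was then −0.13 (−0.19 to −0.08) and −0.28 (−0.37 to −0.19). On that scale 6 of 20 members were at least 2-fold lower and 4 at least 2-fold higher at day 14. The share of all genes called on that scale was not computed, so these 2 counts have no background beside them. The gap between cluster B, or *Hoxb2*, and the rest of the family within a class does not depend on that total.

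**Figure D3:**
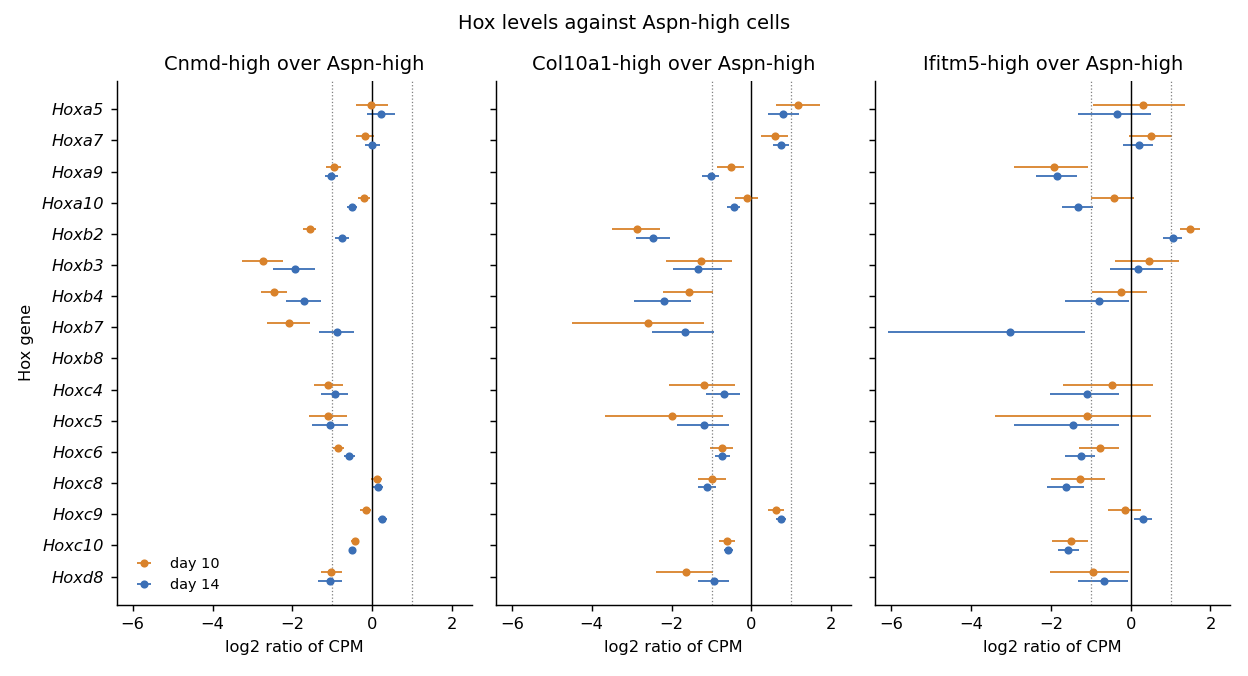
Log2 ratio of CPM in *Cnmd*-high, *Col10a1*-high and *Ifitm5*-high cells over *Aspn*-high cells of the same library for the members described singly, at day 10 and day 14, with exact 95% binomial intervals. Dotted lines mark 2-fold, and no point is drawn where the pair of classes held under 50 UMIs or 1 class held none. *Hoxb2* lies left of 0 in both cartilage classes and right of 0 in *Ifitm5*-high cells, at 1.49 and 1.06.

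*Cnmd*-high chondrocytes showed part of the same pattern. At day 10, 8 of 19 compared members were at least 2-fold lower than in *Aspn*-high cells, against 18.5% of all genes, and at day 14 8 of 22, against 19.7%, with no member 2-fold higher at either day, against 6.98% and 5.82%. With the 100 top genes left out of the totals, 5 were lower at each day, and the share of all genes on that scale was not computed. *Hoxb3* stood at 0.87 CPM against 5.81 at day 10, a log2 ratio of −2.74 (−3.26 to −2.24), and *Hoxb4* at 2.16 against 11.8 CPM, a ratio of −2.45 (−2.78 to −2.13). *Hoxb2* was less reduced, at −1.56 (−1.73 to −1.40) at day 10 and −0.75 (−0.94 to −0.57) at day 14. *Hoxa7* at 0.00 (−0.18 to 0.19) and *Hoxc8* at 0.14 (0.02 to 0.26) were near the fibroblastic level at day 14, and *Hoxa9* was lower at −1.03 (−1.19 to −0.87). So *Hoxa9* was lower in both cartilage classes at day 14, and *Hoxc8* only in the hypertrophic one, where its ratio of −1.11 (−1.33 to −0.90) did not overlap that of the *Cnmd*-high cells, which share the *Aspn*-high cells as reference.

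Osteoblasts had a high *Hoxb2* level, while most compared members had values below the *Aspn*-high level in CPM. Below it were 13 of 18 at day 10, several with intervals that held 0, and 16 of 20 at day 14. Above it were 5 and 4, *Hoxb2* among them. With the 100 top genes left out of the totals, *Hoxa7* was higher, at 0.82 (0.26 to 1.35) at day 10 and 0.50 (0.11 to 0.87) at day 14. On that scale *Hoxc9* was at 0.61 (0.39 to 0.83) at day 14. In *Ifitm5*-high cells *Hoxb2* reached 82.5 CPM (70.4 to 96.1) at day 10 and 34.8 (29.8 to 40.3) at day 14, against 29.3 (27.2 to 31.5) and 16.7 (15.6 to 17.9) in *Aspn*-high cells. The log2 ratios were 1.49 (1.24 to 1.74) and 1.06 (0.81 to 1.29), and *Hoxb2* was the single member at least 2-fold higher, against 4.25% and 4.68% of all genes at the 2 days. At least 2-fold lower were 7 of 18 members at day 10, against 23.8% of all genes, and 12 of 20 at day 14, against 24.8%. Among these, *Hoxc5* and *Hoxc11* at day 10 and *Hoxb9* at day 14 had intervals that held 0. With the 100 top genes left out of the totals, 5 and 10 were lower, and the share of all genes on that scale was not computed. *Hoxc10* was at −1.50 (−1.96 to −1.07) and −1.56 (−1.83 to −1.30), and *Hoxa9* at −1.91 (−2.92 to −1.06) and −1.84 (−2.38 to −1.35). *Hoxb7* and *Hoxb9* had 0 UMIs in *Ifitm5*-high cells of day 10, where 3 UMIs would be 1.5 CPM, and both were below 0.5 CPM at day 14. Without *Hoxb2*, the rest of cluster B stood below the *Aspn*-high level in CPM, at −0.54 (−1.06 to −0.06) and −0.72 (−1.19 to −0.29). With the 100 top genes left out of the totals these ratios were −0.23 (−0.75 to 0.25) and −0.42 (−0.89 to 0.005), with intervals that held 0. The sum of all members was −0.28 (−0.42 to −0.15) at day 10 but 0.02 once the 100 genes with the most UMIs were left out of the total, and −0.71 and −0.41 at day 14. *Hoxb2* (chr11:96350525-96354012, plus strand) overlaps the antisense RNA *Hoxb3os*, which stood at 4.50 and 2.38 CPM in these cells.

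Pericytes held high cluster B levels. In *Rgs5*-high cells cluster B reached 104 CPM (80.3 to 133) at day 10 and 104 (87.3 to 122) at day 14, against 101 (87.5 to 116) and 43.9 (38.3 to 50.1) in *Ifitm5*-high cells, so that the 2 classes overlapped at day 10. *Hoxb2* stood at 58.6 CPM (41.1 to 81.2) and 60.8 (48.3 to 75.5), and *Hoxb4* at 21.2 (11.3 to 36.2) and 14.8 (9.06 to 22.9). At day 14, 4 of 20 members were at least 2-fold higher than in *Aspn*-high cells, *Hoxb2*, *Hoxb4*, *Hoxb7* and *Hoxc4*, against 11.5% of all genes. Their log2 ratios were 1.86 (1.52 to 2.19), 1.53 (0.79 to 2.18), 1.33 (0.30 to 2.21) and 1.28 (0.50 to 1.97). At least 2-fold lower were *Hoxc10*, *Hoxd8* and *Hoxd13*, 3 of 20 against 17.3% of all genes. *Hoxd13* counted there on 0 UMIs, where 3 UMIs would be 2.22 CPM, above its *Aspn*-high level of 1.30 CPM, so its difference was not detectable at this depth. *Hoxb8* reached 5 CPM in these cells alone, on 7 UMIs. The 47 cells of day 10 were too few for a comparison.

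Between day 10 and day 14 the sum of all members hardly moved in *Aspn*-high cells, at a log2 ratio of −0.02 (−0.06 to 0.02), while cluster B was lower. The 3 members at least 2-fold lower were *Hoxb9*, *Hoxb4* and *Hoxd4*, of 24 compared, against 2.28% of all genes, and *Hoxd13* was higher, against 1.65%. *Hoxb4* stood at 11.8 CPM (10.5 to 13.3) at day 10 and 5.14 (4.54 to 5.80) at day 14, a ratio of −1.20 (−1.45 to −0.96), and *Hoxb9* at 3.51 and 1.23 CPM, a ratio of −1.51 (−2.01 to −1.03). *Hoxb2* moved from 29.3 to 16.7 CPM, a ratio of −0.81 (−0.95 to −0.66). All 6 compared members of cluster B had a lower value at day 14, those of *Hoxb6* and *Hoxb7* with intervals that held 0. So had 2 of 7 in cluster A, 1 of 7 in cluster C and 3 of 4 in cluster D. Over all genes the median log2 ratio was −0.02, and the share of genes with a lower value was not counted. Summed, cluster B stood at −0.82 (−0.93 to −0.72), while cluster A was at 0.24 (0.16 to 0.33), with *Hoxa10* at 0.45 (0.30 to 0.60).

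The other classes differed in this. Cluster B at day 14 over day 10 was at −1.20 (−1.48 to −0.92) in *Ifitm5*-high and −0.76 (−1.19 to −0.33) in *Col10a1*-high cells, and at 0.06 (−0.10 to 0.23) in *Cnmd*-high cells. *Hoxb2* in *Ifitm5*-high cells was the single member of 7 compared that was at least 2-fold lower, against 1.37% of all genes. None of 18 compared members in *Cnmd*-high cells changed 2-fold, against 1.32% of genes that were higher and 1.81% that were lower, and none of 12 in *Col10a1*-high cells, against 1.21% and 1.63%. From day 7 to day 10, 15 members could be compared in *Cnmd*-high cells, and *Hoxc8* was higher at day 7, at 1.16 (0.79 to 1.5), against 5.92% of all genes. Each day is a single library, so day and library cannot be told apart.

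**Figure D4:**
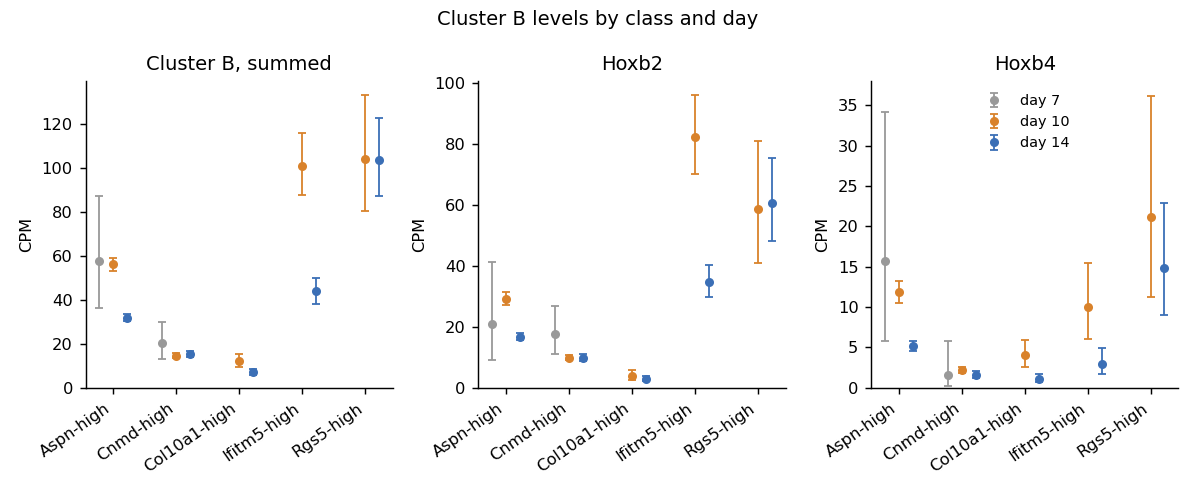
Summed level of cluster B, of *Hoxb2* and of *Hoxb4* in CPM for each class at day 10 and day 14, and at day 7 for the classes with 22 and 59 cells, with exact 95% Poisson intervals. The day 14 points lie below the day 10 points in *Aspn*-high and *Ifitm5*-high cells in all 3 panels, and the intervals overlap in *Rgs5*-high cells.

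Blood cells of the day 7 library carried few *Hox* transcripts and a different set of them. The 6570 *Ptprc*-positive cells held 21.8 CPM (20.6 to 23.2) from all members, a log2 ratio of −3.82 (−4.10 to −3.54) to the 22 *Aspn*-high cells of that library. Of 6 compared members, 5 were at least 2-fold lower, against 35.3% of all genes, and *Hoxb4* was the exception at −0.42 (−1.55 to 1.03). *Hoxa7* and *Hoxb3* were called on 1 and 3 UMIs in the *Aspn*-high cells, with intervals that held 0. Cluster B gave 64.8% of their *Hox* UMIs (61.9 to 67.6), cluster C 14.3% and cluster A 19.6%, where in the *Aspn*-high cells cluster B gave 18.6% (12.1 to 26.9) and cluster C 60.2%. That share is for cells with at most 5000 genes. The 888 *Ptprc*-positive barcodes above that limit held 27.5% from cluster B, with *Col2a1*, a cartilage collagen, at 3233 CPM against 453 within the limit.

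*Hoxb4* was the leading *Hox* gene of these cells, at 11.7 CPM (10.8 to 12.7). It stood at 21.6 CPM (13.8 to 32.1) in the 72 *Mpo*-high cells, which carry a marker of granulocyte precursors, at 12.5 (11.3 to 13.8) in the 2891 *Camp*-high cells, of immature neutrophils, and at 8.09 (4.18 to 14.1) in the 176 *Cd79a*-high cells, of the B lineage. The 250 bases before its start are shown because it had the most UMIs of all members in blood. The RefSeq window is chr11:96318017-96318266 on the plus strand of GRCm38.p6, and neither motif was in it.
Hoxb4: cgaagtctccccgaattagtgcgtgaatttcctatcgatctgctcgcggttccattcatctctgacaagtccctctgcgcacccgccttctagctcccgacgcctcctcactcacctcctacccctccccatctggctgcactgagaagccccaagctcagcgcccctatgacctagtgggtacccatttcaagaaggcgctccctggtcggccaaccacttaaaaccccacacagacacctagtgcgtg
The precursor class had further members. *Hoxa9*, which is active in early myeloid cells, stood at 18.0 CPM (11 to 27.8) in *Mpo*-high, 6.07 (2.77 to 11.5) in *Cd79a*-high and 0.44 (0.24 to 0.74) in *Camp*-high cells. *Hoxa7* stood at 8.98 (4.31 to 16.5), 5.39 (2.33 to 10.6) and 0.25 (0.11 to 0.49) CPM in the same order. Both were thus far lower in immature neutrophils than in precursors, with intervals apart, while the intervals of *Hoxb4* in these cells met at 13.8 CPM. *Hoxa10* and *Hoxc10* had no UMI in the *Mpo*-high cells, where 3 UMIs would be 2.70 CPM.

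Stromal transcripts in blood droplets were measured beside this. In *Camp*-high cells of day 7, *Col1a1* stood at 1.05% (1.03 to 1.08) of its level in the *Ptprc*-negative cells, *Hoxc10* at 0.69% (0.29 to 1.40) and *Hoxa10* at 2.27% (1.08 to 4.29), whereas *Hoxb4* stood at 226% (153 to 347). That reference pooled the classes with all other *Ptprc*-negative cells, among them 351 high for no marker at day 7, with a median of 3273 UMIs. Over *Aspn*-high cells alone, the *Hoxb4* interval of all *Ptprc*-positive cells held 0, as given above. In the 89 *Camp*-high cells of day 14, *Col1a1* stood at 43.6% and *Hoxc10* at 46.3% (30.5 to 67.3) of the *Ptprc*-negative level, and *Hoxb4* at 238% (102 to 473). At day 7 *Hoxb4* thus lay apart from all 14 other genes examined this way, and at day 14 its interval overlapped those of *Hoxa7* and *Hoxc6*. *Hoxb3* was not among these genes. At full depth, 1.97% of the *Camp*-high cells of day 7 had a *Hoxb3* UMI, 11.6% a *Hoxb4* UMI and 0.21% a *Hoxc10* UMI. With every cell thinned to 2000 UMIs, 2.12% (1.77 to 2.51) of the *Ptprc*-positive cells of day 7 had a *Hoxb4* UMI and 0.18% (0.09 to 0.32) a *Hoxc10* UMI, after 382 shallower cells were left out. In *Aspn*-high cells of day 14 the shares were 0.91% (0.62 to 1.27) and 12.6% (11.5 to 13.7), with 22 left out. In *Aspn*-high cells of day 10 they were 2.02% (1.38 to 2.84) and 12.0% (10.4 to 13.7), with 7 left out, so the *Hoxb4* share of that day overlapped that of the blood cells. Unthinned, they were 7.56% and 0.44% in the blood cells at a median depth of 5045 UMIs, 6.25% and 56.0% in the *Aspn*-high cells of day 14 at 14190 UMIs, and 14.6% and 56.9% in those of day 10 at 15211 UMIs.

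**Figure D5:**
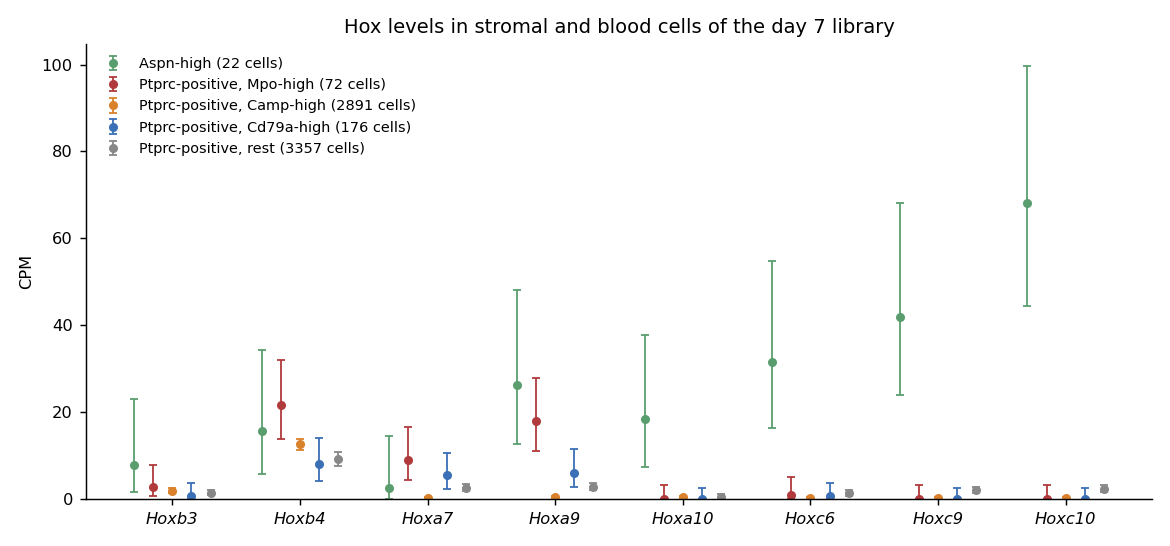
Level in CPM of 8 members in *Aspn*-high cells and in 4 sets of *Ptprc*-positive cells of the day 7 library, with exact 95% Poisson intervals. *Hoxb4* is at 8.09 to 21.6 CPM in the blood sets, *Hoxa7* and *Hoxa9* are highest in *Mpo*-high among them, and *Hoxc6*, *Hoxc9* and *Hoxc10* are near 0 in all but *Aspn*-high cells.

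Other genes of limb position were counted as fixed lists. Among the cofactors of the TALE group, which bind DNA together with HOX proteins, *Meis2* stood at 26.1 CPM in *Aspn*-high, 13.2 in *Cnmd*-high, 9.61 in *Col10a1*-high, 14.1 in *Ifitm5*-high and 23.0 in *Rgs5*-high cells of day 14. *Meis1*, a partner of *Hoxa9* in blood precursors, stood at 9.88 CPM (4.93 to 17.7) in *Mpo*-high and 0.41 (0.22 to 0.70) in *Camp*-high cells.

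*Pitx1*, the hindlimb factor, was the single gene of its list of 3 that reached 10 CPM, at 14.1 CPM in *Aspn*-high and in *Cnmd*-high cells of day 14, and *Tbx5*, the forelimb factor, was at most 2.67 CPM at days 10 and 14. None of 7 craniofacial and none of 3 caudal-type genes reached 10 CPM. All 3 proximal limb genes did, and *Irx3* and *Irx5* were highest in hypertrophic chondrocytes. *Irx5* stood at 277 CPM in *Col10a1*-high and 6.76 in *Aspn*-high cells of day 10, a log2 ratio of 5.36 (5.13 to 5.60), and at 266 and 7.03 CPM at day 14, a ratio of 5.24 (5.09 to 5.40). *Shox2*, by contrast, was highest in *Cnmd*-high cells, at 156 CPM at day 14.

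All 5 limb mesenchyme genes were at least 2-fold lower in *Col10a1*-high than in *Aspn*-high cells of day 14, and 4 of 5 at day 10, against the 23.1% and 21.8% of all genes given above. At day 14 they were led by *Prrx2* at 14.7 against 214 CPM, with *Prrx1* at 22.4 against 229 CPM. Of the anteroposterior list of 4, *Tbx2* and *Tbx3* were highest in *Rgs5*-high cells, at 74.1 and 39.3 CPM at day 14, and *Gli3* in *Aspn*-high cells, at 26.9 CPM. *En1*, of the dorsoventral pair, reached 15.6 CPM in *Aspn*-high cells of day 14. Of 10 noncoding RNAs of the *Hox* clusters that had a row, *Hotairm1* and *Hoxb3os* reached 10 CPM, at 13.9 CPM in *Aspn*-high and 14.8 CPM in *Rgs5*-high cells of day 14. *Hotair*, which lies in cluster C, was at most 0.495 CPM at days 10 and 14.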

How the data were processed

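Raw UMI counts were deposited by the authors as 1 gene-by-cell matrix per library, aligned to mm10. The paper names Cell Ranger 4.0.0 and a later kit, the submitters' notes name Cell Ranger 3.0 and the matrix headers 3.1.0, so the version is uncertain. No values were normalized by the authors in these files.

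Cells with 500 to 5000 genes, at most 10% mitochondrial and 5% hemoglobin UMIs were kept. A class needed at least 3 marker UMIs and, per 10000 UMIs, 10 of *Aspn*, *Cnmd* or *Rgs5*, 100 of *Col10a1* or 5 of *Ifitm5*. Cells high for 2 or more were left out, which also served for doublets, and no doublet caller was run. *Ptprc*-positive cells had at least 1 UMI, with subsets at 10 of *Mpo*, 20 of *Camp* and 5 of *Cd79a* or *Csf1r* per 10000. UMIs were summed per class and divided by the class total. With 1 library a day there is no replicate, so only exact Poisson, binomial and Clopper-Pearson 95% intervals were computed (scipy 1.17.1, Python 3.11.15). They cover counting error only, take UMIs as independent, and leave out spread between mice. Ratios were tested on simulated counts first. Positions are from GENCODE M21. The members, the marker classes and the gene lists were chosen with earlier results of these data known, and a member was described singly from 5 CPM, a gene of another list from 10 CPM. Alternatives moved the cell limits, thresholds, *Ptprc* rule, scale and call limits. Results of 1 gene of these lists are not reported here.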

Additional observations from a re-analysis of the deposited data

Results flagged for a closer look

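1 member met the rule for opposite directions at the 2 days. *Hoxc9* in *Cnmd*-high over *Aspn*-high cells had a log2 ratio of −0.16 (−0.30 to −0.03) at day 10 and 0.25 (0.15 to 0.36) at day 14, each interval on its own side of 0. With the 100 top genes left out of the totals the ratios were 0.04 (−0.10 to 0.17) and 0.44 (0.33 to 0.55), so the directions were then not opposite. The difference between the days was not tested, since each day is 1 library. In *Aspn*-high cells *Hoxc9* stood at 30.1 and 30.4 CPM, and in *Cnmd*-high cells at 26.9 and 36.3 CPM.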

How the results depend on the processing

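Of 106 alternatives to the summed values, shares and counts, 82 stayed within the limits set for the value as reported. For the 62 single-gene ratios that were at least 2-fold as reported, 557 alternatives were computed. Of these, 539 stayed within the interval, 484 were at least 2-fold and none was counted as reversed. A reversal was counted only where the reported interval did not hold 0, so it could not be counted for the other ratios. The summed *Hox* log2 ratio of *Col10a1*-high over *Aspn*-high cells, −0.51 at day 10, was −0.63 with cells high for 2 or more markers kept, −0.60 as a mean over cells and −0.28 scaled without the 100 top genes. At day 14 the last 2 gave −0.49 and −0.13. The count of 10 members at least 2-fold lower at day 14 was 6 without the top genes, 6 from 200 UMIs and 5 at 3-fold. Leaving the top genes out, chosen for single members after seeing the data, moved the count of members at least 2-fold lower in *Cnmd*-high cells from 8 to 5 at both days and that of members higher in *Col10a1*-high cells of day 14 from 0 to 4. No share of all genes was computed for these alternative counts. As means over cells, the cluster B share in *Aspn*-high cells was 10.4% and the share of paralogs 9 to 13 was 56.3%, and paralogs 10 to 13 alone gave 37.8%.

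The *Ptprc*-positive values of day 7 moved with the cell limits. Their cluster B share of 64.8% was 39.4% with no limits, 39.3% with no upper limit of genes, 71.4% from 2 *Ptprc* UMIs, 74.1% as a mean over cells and 72.1% without the deepest 10% of cells. Without cells that carry stromal markers, an alternative chosen after seeing the data, it was 71.2%. Their log2 ratio to *Aspn*-high cells was −2.73 with no limits, −2.71 with no upper limit and −4.18 as a mean over cells. For cluster B at day 14 over day 10, a result added after seeing the data, keeping cells high for 2 or more markers gave −0.65 in *Aspn*-high cells, and doubled thresholds gave −0.32 in *Col10a1*-high cells. In *Cnmd*-high cells it was −0.14 with no limits and −0.13 with no upper limit, against an interval that held 0. The cause of these shifts was not tested. No paired analysis was possible because each day is 1 library. Precision is limited by small classes, such as 22 *Aspn*-high cells at day 7 and 47 *Rgs5*-high cells at day 10, and spread between mice is unmeasured.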
